A study of Mus musculus with 6 samples.

Results

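6499c4 is 1 of 3 murine pancreatic ductal adenocarcinoma cell lines in the series, and its libraries were chosen by the cell line label: 2 of the 6 libraries are from 6499c4, and the other 4 are from the lines 2838c3 and 6419c5. For each line, 1 library was made after the solvent DMSO (vehicle) and 1 after 250 nM G-1, a small molecule that activates the membrane oestrogen receptor GPER, both after 16 hours, so the 3 lines share both conditions. All cells grew in DMEM with 5% serum at passages 15 to 20. The series asks what G-1 does to such tumour cells. The comparison here is between the lines and treats G-1 as a covariate. The labels give no tumour genotype. Lines of these names are known as clones grown from pancreatic tumours of genetically engineered mice, so that each line stands for 1 clone. The labels name no separate cultures. With G-1 as a covariate, p-values test differences between line means. They set them against a spread taken from how the step from the vehicle to the G-1 library varies between the lines. That spread may be technical in part.

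Reads in genes ranged from 5455990 to 8890821 per library, with 8567641 (vehicle) and 7484596 (G-1) in 6499c4, and 13071 to 13627 genes were above 0. Levels are FPKM, that is reads divided by gene length and by a factor for library size. Differences are on the log2(FPKM + 1) scale, which understates the change of genes near 0. The 7 duct tumour markers summed to 3419 to 5961 FPKM in the 6 libraries. Most of that sum came from keratins, while Epcam stood at 0.284 to 5.81 FPKM over the 6 libraries. Summed over their lists, markers of T cells, fibroblasts, endothelium and endocrine cells stayed at or below 2.0 FPKM in each library, and 8 acinar markers summed to 0.166 to 7.66 FPKM. In the macrophage list the defining gene Adgre1 was at 0 in all 6 libraries, while Cd14 stood at 37.7 to 65.2 FPKM and was lower in 6499c4, a call lost without either library of 6419c5 or the G-1 library of 6499c4.

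The genes described here have textbook roles in gastric, gut and pancreatic epithelium. Claudin 18 is a tight junction protein of stomach and lung epithelium, and trefoil factors and gastrokines are secreted by the gastric surface. YAP and TAZ are transcriptional coactivators that work with TEAD factors and are restrained by the Hippo kinases, and their targets include secreted matrix and adhesion regulators. Chemokines and colony-stimulating factors made by tumour cells attract and sustain myeloid cells, and many of them are induced through NF-kB.

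A gene was called when 6499c4 differed from 2838c3 and from 6419c5 in the same direction, each at an adjusted p under 0.05 in limma. By this rule 1286 of 10748 tested genes (12.0%) were higher in 6499c4 and 1491 (13.9%) were lower. Both differences reached at least 1 on the log2 scale for 224 of the higher and 273 of the lower genes, and the median of the smaller difference over all called genes was 0.543. A further 484 genes passed against both lines with opposite signs, so that 6499c4 lay between the others. The counts depended on single libraries. They were 667 higher and 955 lower without the G-1 library of 6419c5, 829 and 1037 without the vehicle library of 6419c5, and 757 and 1067 without the G-1 library of 6499c4. Across genes, which are not independent replicates, Pearson's r of log2 levels was 0.9844 between both 6499c4 libraries and 0.8816 to 0.9232 between a 6499c4 library and a library of another line.

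**Figure D1:**
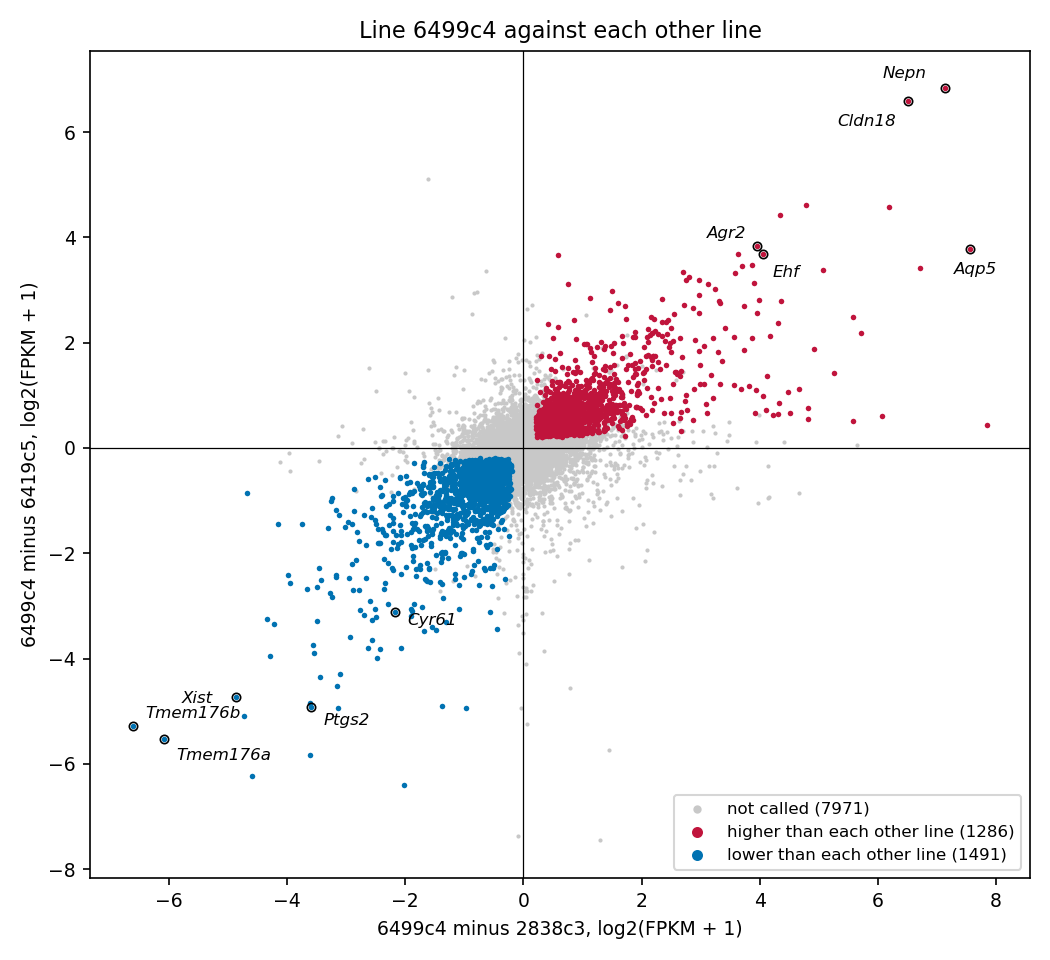
Difference of 6499c4 from 2838c3 (x axis) and from 6419c5 (y axis) for each of the 10748 tested genes, in log2(FPKM + 1). Red points are the 1286 genes higher than in each other line and blue points the 1491 lower ones, with Nepn and Cldn18 at the upper right and Tmem176a and Tmem176b at the lower left.

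The highest-ranked gene among the higher ones was Nepn, which encodes nephrocan, a secreted leucine-rich repeat protein known from the embryonic endoderm. It stood at 135 and 154 FPKM in 6499c4 against 0.0641 and 0 in 2838c3 and 0.0768 and 0.504 in 6419c5 (vehicle, then G-1, here and below). These values rest on 2250 and 2246 reads in 6499c4, 1 and 0 in 2838c3 and 1 and 5 in 6419c5, so the gene was near the floor of 3 reads in most other libraries. The differences were 7.13 from 2838c3 and 6.83 from 6419c5 (SE 0.17, adjusted p = 4.01e-07 in limma). The p given here and below is the larger of both. Nepn, Cldn18 and Agr2 were given as markers of the line with earlier results of these data known. Their p-values and the gaps between their libraries are therefore a description and no independent support.

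Cldn18, the claudin of gastric epithelium, had 159.5 and 158 FPKM in 6499c4 against 0.674 and 0.826 in 2838c3 and 0.449 and 0.883 in 6419c5. Both 6499c4 libraries were far above the other 4, which did not reach 1 FPKM. The read ratio of 6499c4 was 212 (95% interval 155 to 297) to 2838c3 and 249.6 (95% interval 169 to 386) to 6419c5, where intervals cover counting error only, and the differences were 6.51 from 2838c3 and 6.60 from 6419c5 (SE 0.14, adjusted p = 2.15e-07). In such bulk libraries, more cells with a transcript and more transcript per cell cannot be told apart.

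The third gene given as a marker of the line, Agr2, encodes a disulphide isomerase of mucus-secreting cells. Its level was 11.6 and 17.9 FPKM in 6499c4 against 0 and 0 in 2838c3 and 0.184 and 0 in 6419c5, again without overlap between 6499c4 and the others, with differences of 3.95 from 2838c3 and 3.83 from 6419c5 (SE 0.23, adjusted p = 2.40e-05). These 3 genes lie on different chromosomes of GRCm38 in the GENCODE M21 annotation: Nepn on chromosome 10 (52388972 to 52404625, plus strand), Cldn18 on chromosome 9 (99689461 to 99717267, minus strand) and Agr2 on chromosome 12 (35992907 to 36004087, plus strand).

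The promoters of the 2 genes with the largest smaller difference are shown to give the sequence at their starts, 250 bases before to 50 after, from RefSeq on GRCm38.p6 in the direction of transcription. Cldn18 has 2 starts in that table. The Nepn window lies inside the GENCODE M21 gene, which begins at 52388972, so its RefSeq start is downstream of that base. Capitals mark the core of the GATA factor motif, GATAAG or its reverse complement CTTATC, which 7.44% of 32851 promoters hold on either strand. The Nepn window holds it 1 time and neither Cldn18 window holds it, which says only that these letters are not in them.
Nepn, chr10:52391358-52391657 (plus strand): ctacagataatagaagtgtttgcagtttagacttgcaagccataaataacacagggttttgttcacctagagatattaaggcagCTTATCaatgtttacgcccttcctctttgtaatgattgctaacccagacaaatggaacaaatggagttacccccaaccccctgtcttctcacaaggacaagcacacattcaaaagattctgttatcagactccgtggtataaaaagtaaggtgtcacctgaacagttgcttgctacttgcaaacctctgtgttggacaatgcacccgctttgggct
Cldn18 first start, chr9:99717218-99717517 (minus strand): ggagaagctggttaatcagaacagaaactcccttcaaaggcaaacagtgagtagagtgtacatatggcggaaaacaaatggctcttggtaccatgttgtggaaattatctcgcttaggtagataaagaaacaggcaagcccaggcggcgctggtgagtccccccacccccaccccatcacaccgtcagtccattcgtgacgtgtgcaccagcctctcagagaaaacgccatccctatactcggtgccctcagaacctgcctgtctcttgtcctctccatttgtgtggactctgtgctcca
Cldn18 second start, chr9:99710014-99710313 (minus strand): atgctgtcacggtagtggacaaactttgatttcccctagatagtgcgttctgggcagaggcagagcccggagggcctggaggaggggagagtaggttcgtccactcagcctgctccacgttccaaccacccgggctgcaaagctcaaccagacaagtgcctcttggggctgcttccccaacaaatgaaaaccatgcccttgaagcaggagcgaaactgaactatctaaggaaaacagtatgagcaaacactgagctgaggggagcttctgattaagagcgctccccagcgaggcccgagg

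Listed gastric products, which include secreted proteins but also junction and surface proteins, a water channel and enzymes, split in both directions in 6499c4. Of 39 listed products, 38 were in the table and 16 reached a mean of 1 FPKM, of which 5 were higher and 5 lower (31.2% each, against 12.0% and 13.9% of all tested genes). The 5 higher ones include Cldn18 and Agr2, which were given as markers of the line, so their calls add nothing to this share. The median differences over these 16 were 0.25 and -0.05. The other 22 were below the level filter, and 9 of them, among them the gland mucin Muc6 and the trefoil factor Tff3, had no read in any library. With no read counted, a true level of up to 3 reads (0.337 to 0.550 RPM, depending on the library) remains possible.

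Of the products that were higher, Aqp5, a water channel of glandular epithelium, was the most abundant. It stood at 722 and 812 FPKM in 6499c4 against 3.01 and 3.10 in 2838c3 and 56.6 and 53.1 in 6419c5, and the differences were 7.56 from 2838c3 and 3.78 from 6419c5 (SE 0.08, adjusted p = 3.07e-07). The ranks of the 3 lines were therefore the same in both treatments, with 6499c4 highest and 2838c3 lowest. Dmbt1, a secreted mucosal scavenger receptor, was at 12.9 and 11 FPKM in 6499c4 against 0 and 0.0188 in 2838c3 and 4.84 and 5.00 in 6419c5, with differences of 3.68 and 1.13 (SE 0.15, adjusted p = 9.00e-04). Sult1c2, a sulfotransferase, differed mainly from 2838c3, by 2.66, against 0.33 from 6419c5, a call that was lost without either library of 6419c5 or of 6499c4.

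The lower products included surface mucous cell genes. Tff1, a trefoil factor, had 8.0 and 9.13 FPKM in 6499c4 against 26.4 and 21.6 in 2838c3 and 39.0 and 40.7 in 6419c5, a read ratio of 2.81 (95% interval 2.13 to 3.75) for 2838c3 over 6499c4, and differences of -1.38 from 2838c3 and -2.10 from 6419c5 (SE 0.12, adjusted p = 8.72e-05). Gkn2, a gastrokine, had 0 and 0.321 FPKM in 6499c4 against 3.76 and 3.62 in 2838c3 and 82.5 and 111 in 6419c5, so it was close to the floor in 6499c4, far higher in 6419c5 and low in 2838c3. Its neighbour in function, Gkn1, had 0.269 and 0 FPKM in 6499c4 against 1.63 and 0.865 in 2838c3 and 29.8 and 37.5 in 6419c5, with differences of -0.97 and -4.93 (SE 0.21, adjusted p = 0.00619). The call for Gkn1 was lost without the vehicle library of 2838c3. Psca, a surface antigen of gastric and bladder epithelium, and Cyp2s1, an epithelial cytochrome P450, were lower, with differences of -1.16 and -2.40 (SE 0.20, adjusted p = 0.00223) and -2.38 and -1.60 (SE 0.09, adjusted p = 1.87e-05).

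Of the products that were measured and not called, Ctse, the aspartic protease cathepsin E, was at 132 and 129.8 FPKM in 6499c4 against 125 and 117 in 2838c3 and 81.0 and 69 in 6419c5. Vsig1, a gastric junction protein, had 48.9 and 51.5 FPKM in 6499c4, between 37.1 and 37.2 in 2838c3 and 60.1 and 67.5 in 6419c5. Muc5ac, the gastric surface mucin, stayed under 1 FPKM in every library and was not tested.

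**Figure D2:**
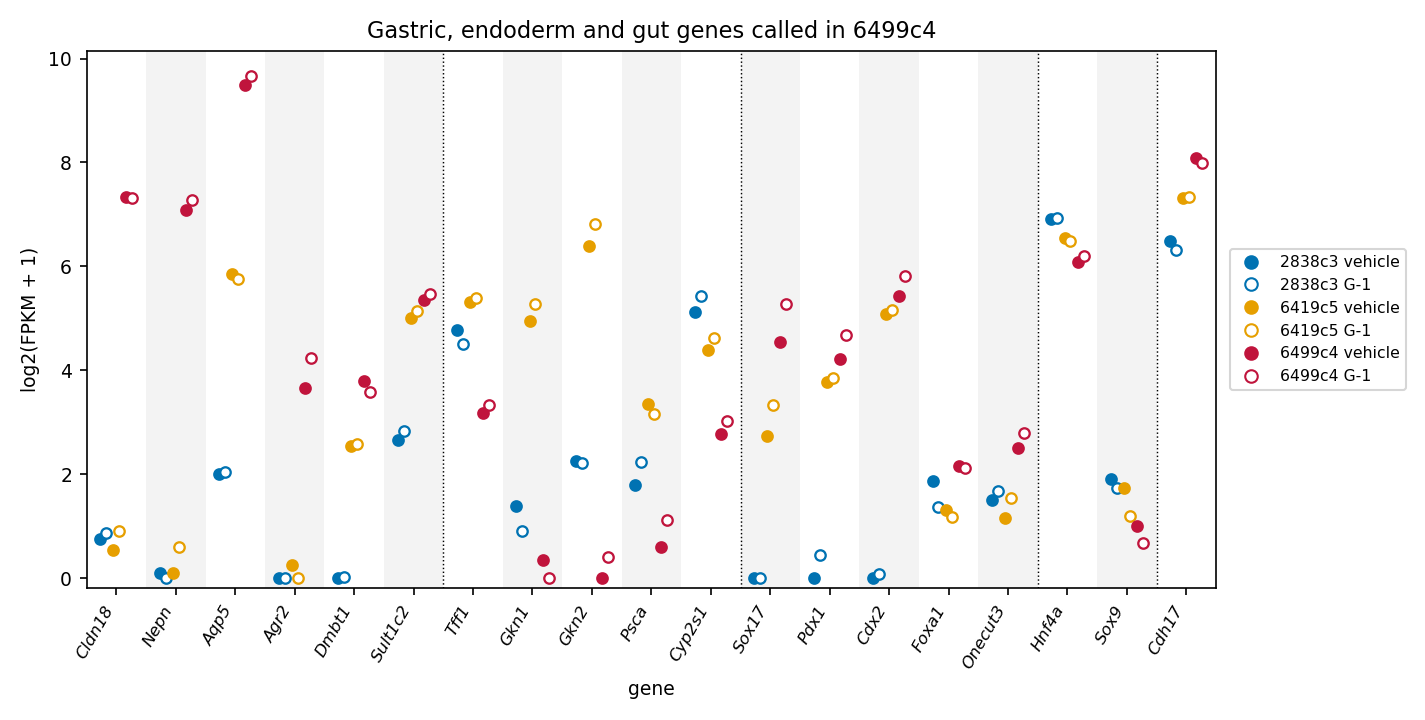
Level of called gastric, endoderm and gut genes in each library, as log2(FPKM + 1), with lines by colour, filled points for vehicle and open points for G-1. Dotted lines separate products that were higher, products that were lower, factors that were higher (Nepn is drawn with the first set), factors that were lower and the gut cadherin Cdh17.

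Transcription factors and markers of endoderm, pancreas and gut were more often higher than lower in 6499c4. Of 31 listed, 20 were tested, with 7 higher (35.0%, against 12.0% of all tested genes) and 2 lower (10%, against 13.9%), and their median differences were 0.29 and 0.37. The 7 higher ones include Nepn, which was given as a marker of the line. Sox17, an early endoderm and biliary factor, had 22.3 and 37.8 FPKM in 6499c4 against 0 and 0 in 2838c3 and 5.64 and 9.11 in 6419c5, with no read in 2838c3 and more in 6499c4 than in 6419c5. Its differences were 4.91 from 2838c3 and 1.87 from 6419c5 (SE 0.19, adjusted p = 2.63e-04).

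Pdx1 and Cdx2 mark pancreas with duodenum and intestine. Pdx1 had 17.7 and 24.6 FPKM in 6499c4 against 0 and 0.364 in 2838c3 and 12.7 and 13.4 in 6419c5, and Cdx2 had 42.1 and 55.5 FPKM in 6499c4 against 0 and 0.0546 in 2838c3 and 32.7 and 34.7 in 6419c5. Both were nearly absent from 2838c3, and their differences from 6419c5 were small, at 0.64 (adjusted p = 0.010) and 0.51 (adjusted p = 0.0120). The call for Pdx1 was lost without the G-1 library of 6419c5 or of 6499c4, and that for Cdx2 also without the vehicle library of 6419c5. Onecut3, a homeodomain factor of foregut derivatives, was higher, with differences of 1.06 and 1.30 (SE 0.15, adjusted p = 9.37e-04).

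The small differences of Foxa1, a pioneer factor of endoderm, passed narrowly. Foxa1 had 3.46 and 3.37 FPKM in 6499c4 against 2.64 and 1.58 in 2838c3 and 1.49 and 1.27 in 6419c5, with an adjusted p of 0.0391. Leaving out any of 4 libraries ended its call, namely both of 6419c5 and the G-1 libraries of 2838c3 and 6499c4.

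The factor Hnf4a, a regulator of gut and liver epithelium, was lower, at 67.1 and 72.7 FPKM in 6499c4 against 119 and 122 in 2838c3 and 93.1 and 89.4 in 6419c5, with differences of -0.78 and -0.38 (SE 0.07, adjusted p = 0.00511), a call that was lost without the vehicle library of 6419c5. Sox9, a duct and progenitor factor, was low in all lines (1.00 and 0.602 FPKM in 6499c4 and at most 2.73 elsewhere), and its lower call was lost without either library of 6419c5 or of 6499c4. Gata6 and Foxa2, which are used to describe the classical state of this tumour, did not pass against both lines. Gata6 differed by 0.78 from 2838c3 and -0.21 from 6419c5, and the same differences of Foxa2 were -0.17 and -0.25. Of 6 tested intestinal products, 1 was higher (16.7%, against 12.0% of all tested genes) and none lower (against 13.9%). It was Cdh17, the intestinal cadherin, at 269.9 and 253 FPKM in 6499c4 against 88.8 and 78.2 in 2838c3 and 158 and 161 in 6419c5. The other 5, among them the microvillus protein villin (Vil1, 0.03 and 0.20), were not called.

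Epithelial genes were called in both directions in 6499c4. Over 54 tested genes of 3 lists, 17 were higher (31.5%) and 12 lower (22.2%), against 12.0% and 13.9% of all genes, with medians of 0.40 and -0.01. Without the G-1 library of 6419c5, the count of higher epithelial genes was 10. Among 31 junction genes, 7 were higher (22.6%) and 8 lower (25.8%). The 7 higher ones were Cldn3, Cldn6, Cldn7, Tjp3, Marveld2, Marveld3 and Crb3, and the 8 lower ones Cdh1, Cdh3, Dsp, Ctnnd1, Itga6, Itgb4, Cgn and Pard6b. Among these, the claudin genes, Tjp3, Marveld2 and Marveld3 were thus higher, while the tight junction plaque gene Cgn and the cadherin genes were lower. The polarity genes Crb3 and Pard6b lay on opposite sides.

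Cldn3, a claudin of simple epithelium, had 11.7 and 16.5 FPKM in 6499c4 against 0 and 0 in 2838c3 and 0.443 and 1.02 in 6419c5, and was near 0 outside 6499c4. Cldn6, a claudin of embryonic epithelium, had 173 and 147 FPKM in 6499c4 against 59.0 and 52.8 in 2838c3 and 21.8 and 17.1 in 6419c5, highest in 6499c4 and lowest in 6419c5. Their differences were 3.90 and 3.12 (SE 0.19, adjusted p = 2.52e-05) for Cldn3 and 1.5 and 2.99 (SE 0.08, adjusted p = 8.12e-06) for Cldn6. Cldn7, the scaffold Tjp3, the tricellular protein Marveld2, the related Marveld3 and the polarity gene Crb3 were the other higher ones, with smaller differences of 1.53, 1.27, 0.68, 1.14 and 0.39. The call for Marveld2 was lost without the G-1 library of 6419c5 or of 6499c4, and that for Crb3 without any library except the G-1 library of 2838c3.

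Cdh1, which encodes E-cadherin of adherens junctions, was high in all lines and lowest in 6499c4, at 178 and 169 FPKM in 6499c4 against 352 and 329 in 2838c3 and 233 and 228 in 6419c5. The read ratio over 6499c4 was 1.96 (95% interval 1.92 to 2.01) for 2838c3 and 1.33 (95% interval 1.30 to 1.36) for 6419c5, and the differences were -0.97 from 2838c3 and -0.41 from 6419c5 (SE 0.07, adjusted p = 0.00207). Cdh3, P-cadherin, had 0.893 and 1.51 FPKM in 6499c4 against 12.9 and 8.88 in 2838c3 and 33.2 and 26.6 in 6419c5, with differences of -2.42 and -3.81 (SE 0.21, adjusted p = 7.73e-05). Desmoplakin (Dsp) was lower, with differences of -2.39 and -0.90 (SE 0.10, adjusted p = 4.59e-04), and so was the catenin Ctnnd1, with -0.90 and -0.76 (SE 0.07, adjusted p = 1.87e-04). Both hemidesmosome integrin genes (Itga6 and Itgb4), the tight junction plaque gene Cgn and the polarity gene Pard6b were also lower, with smaller differences of -0.51, -0.49, -0.63 and -0.51. Epcam, an epithelial adhesion gene, was not called (1.91 and 0.37).

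Among 15 keratins and surface genes, 7 were higher (46.7%, against 12.0% of all tested genes) and 2 lower (13.3%, close to the 13.9% of all tested genes). Of the 7 higher calls, 4 (Krt19, Lgals4, Spint1 and Muc1) were lost without the G-1 library of 6419c5. Krt7, a duct keratin, had 1219.7 and 1052 FPKM in 6499c4 against 353 and 293 in 2838c3 and 611 and 469.9 in 6419c5, with differences of 1.81 and 1.08 (SE 0.07, adjusted p = 4.40e-05). Krt19, the other typical duct keratin, had 1399.5 and 1391 FPKM in 6499c4 against 394 and 410.0 in 2838c3 and 1047 and 942 in 6419c5, with differences of 1.79 and 0.49 (SE 0.08, adjusted p = 0.00221). Krt20, a keratin of gut and gastric surface epithelium, went the other way, at 12.6 and 9.05 FPKM in 6499c4 against 139 and 122 in 2838c3 and 114 and 113 in 6419c5, with differences of -3.49 and -3.29 (SE 0.10, adjusted p = 1.32e-06). The simple keratins Krt8 (0.44 and -0.43) and Krt18 (0.05 and -0.73) were not called.

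The stem cell antigen Prom1, the membrane mucin Muc1, the sialoglycoprotein gene Cd24a, the lectin gene Lgals4 and the protease inhibitor gene Spint1 were the other higher members. Prom1 stood at 80.5 and 89.7 FPKM in 6499c4 against 12.7 and 10.8 in 2838c3 and 42.1 and 41.9 in 6419c5. The libraries of Spint1 overlapped between 6499c4 and 6419c5. The calls for Lgals4 and Spint1 were also lost without the vehicle library of 6419c5, and those for Spint1 and Muc1 without the G-1 library of 6499c4. The keratin gene Krt23 was lower, with differences of -0.56 and -1.82 (SE 0.08, adjusted p = 8.19e-04).

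Of 8 tested epithelial regulators, 3 were higher (37.5%, against 12.0% of all tested genes) and 2 lower (25%, against 13.9%). Ehf, an epithelial ETS factor, had 17.1 and 18.9 FPKM in 6499c4 against 0.160 and 0.134 in 2838c3 and 0.479 and 0.461 in 6419c5 and thus was near 0 outside 6499c4, with differences of 4.05 and 3.69 (SE 0.16, adjusted p = 5.71e-06). Klf5 (0.74 and 0.89) was also higher. Klf4 (-0.56 and -0.68) and the splicing factor Esrp2 (-0.72 and -0.83) were lower.

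Of 16 tested mesenchymal genes, 6 were lower (37.5%, against 13.9% of all tested genes) and 1 was higher (6.25%, against 12.0%). Vim, the intermediate filament vimentin, was abundant in all lines and lowest in 6499c4, at 1110.1 and 1087 FPKM in 6499c4 against 1891 and 2038 in 2838c3 and 2878 and 2862 in 6419c5, with differences of -0.84 and -1.38 (SE 0.08, adjusted p = 1.24e-04). Sparc, a matrix glycoprotein, had 3.39 and 1.42 FPKM in 6499c4 against 27.4 and 27.8 in 2838c3 and 106 and 93.3 in 6419c5, with differences of -3.13 and -4.94 (SE 0.19, adjusted p = 1.73e-05). The actin-binding gene Cald1 was lower, with differences of -2.70 and -3.18 (SE 0.07, adjusted p = 4.73e-07).

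The collagen gene Col6a1, the repressor Snai2 and the repressor Zeb1 were lower, with differences of -2.15, -1.14 and -0.50 from 2838c3 and of -1.65, -1.42 and -0.56 from 6419c5. The call for Zeb1 was lost without the vehicle library of 2838c3 or the G-1 library of 6419c5. Twist1, a mesenchymal factor, was higher in 6499c4, at 16.4 and 17.6 FPKM in 6499c4 against 0 and 0 in 2838c3 and 3.69 and 2.59 in 6419c5, with differences of 4.17 and 2.13 (SE 0.17, adjusted p = 8.91e-05). Fn1, fibronectin, and Cdh2, N-cadherin, were not called (-0.16 and -0.72 for Fn1, -0.08 and -0.80 for Cdh2). Of 10 tested genes of a basal-like list, 4 were lower (40%, against 13.9% of all tested genes), among them Dhrs9, Areg and Slc2a1, and 1, Sprr1a, was higher (10%, close to the 12.0% of all tested genes). The call for Areg was lost without the vehicle library of 2838c3 or of 6499c4, and that for Dhrs9 without the vehicle library of 6419c5 or of 6499c4.

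Most YAP/TEAD target genes were lower in 6499c4 than in each other line. Of 27 listed genes 25 were tested. Of these, 16 were lower (64.0%, against 13.9% of all tested genes) and none was higher (against 12.0%). The median differences were -1.10 from 2838c3 and -0.87 from 6419c5 (-0.005 and 0.006 over all tested genes). This list, like the others, was chosen with earlier results of these data known, so its share is a description. The 16 lie on 11 chromosomes, with 3 of them on chromosomes 2, 3, 8, 16 and 18, where larger shares of all genes were lower. With the median difference of each chromosome removed from its genes, an alternative chosen after seeing the data, 18 were lower and none higher. That setting leaves shifts of part of a chromosome in place, and DNA copy number was not tested. On the same chromosomes 2, 3, 8, 16 and 18 lie 3 of 6 lower mesenchymal genes, 4 of 9 lower Hippo pathway genes and 4 of 11 lower receptor and NF-kB genes. For lower cytokines it was 1 of 4, and for lower chemokines 0 of 4. Of all 1491 lower genes, 230, 141, 134, 99 and 62 lie on these chromosomes, in the same order. The list counts are therefore not read as particular to these lists.

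Secreted and cell-surface targets were among those with wide gaps. Thbs1, thrombospondin 1, had 7.94 and 6.34 FPKM in 6499c4 against 78.6 and 59.8 in 2838c3 and 177 and 142 in 6419c5, with differences of -3.10 from 2838c3 and -4.30 from 6419c5 (SE 0.08, adjusted p = 3.36e-07). Both 6499c4 libraries lay far below the other 4. Cyr61, a matricellular protein and a classical YAP target, had 56.0 and 56.3 FPKM in 6499c4 against 285 and 233 in 2838c3 and 499.7 and 489 in 6419c5. Its read ratio over 6499c4 was 4.61 (95% interval 4.39 to 4.85) for 2838c3 and 8.82 (95% interval 8.41 to 9.26) for 6419c5, and its differences were -2.18 and -3.12 (SE 0.09, adjusted p = 2.64e-06). F3, tissue factor, which starts coagulation, had 45.0 and 46.2 FPKM in 6499c4 against 149 and 123 in 2838c3 and 509.5 and 471 in 6419c5, with differences of -1.55 and -3.40 (SE 0.09, adjusted p = 1.13e-05).

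Ankrd1, a nuclear ankyrin repeat protein and another classical target, had 138 and 99.5 FPKM in 6499c4 against 499.6 and 439 in 2838c3 and 277 and 233 in 6419c5, with differences of -1.99 and -1.11 (SE 0.08, adjusted p = 7.02e-05). Amotl2 and Lats2 encode inhibitors of YAP that are themselves targets. Amotl2 stood at 28.8 and 26.5 FPKM in 6499c4 against 50.4 and 50.8 in 2838c3 and 78.3 and 68.3 in 6419c5, with differences of -0.85 and -1.37 (SE 0.08, adjusted p = 1.30e-04), and Lats2 had differences of -1.19 and -0.78 (SE 0.10, adjusted p = 6.05e-04). The receptor tyrosine kinase gene Axl had 138 and 126 FPKM in 6499c4 against 284 and 284 in 2838c3 and 223 and 204 in 6419c5, with differences of -1.10 and -0.69 (SE 0.07, adjusted p = 2.63e-04). In each of these genes both 6499c4 libraries lay below all 4 others.

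The kinase gene Nuak2 (-2.88 and -2.70) and Nt5e, the adenosine-producing enzyme CD73 (-1.87 and -2.15), had differences beyond 1 from both lines. So did the guanine nucleotide exchange gene Dock5 (-1.72 and -1.11). The endothelin gene Edn1, the membrane protein gene Crim1, Ajuba, Asap1 and Arhgef17 were also lower, with smaller differences of -0.87, -0.79, -0.37, -0.38 and -0.68. The calls for Ajuba and Asap1 were lost without the G-1 library of 6419c5. Asap1 also lost it without the vehicle library of 6419c5 or the G-1 library of 6499c4, and Edn1 without the vehicle library of 6419c5 or of 6499c4. Over the libraries left out in turn, 14 to 16 targets stayed lower by the same rule.

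Ctgf, the relative of Cyr61 that is often read beside it, did not follow the others. Its level was 105 and 79.1 FPKM in 6499c4 against 89.3 and 85.4 in 2838c3 and 338 and 254 in 6419c5, with differences of 0.06 and -1.68 (SE 0.10, adjusted p = 0.627), so 6499c4 lay with 2838c3. Ctgf and Amotl1 were the members that passed against both lines, as lower, when the median of each chromosome was removed. Gadd45a (0.55 and 0.31) was above both lines and passed against both with quantile scaling, and Igfbp3, Foxf2, Fjx1, Ccdc80, Ptpn14, Myof and Amotl1 were not called. Rbms3 and Tgfb2 were below the level filter.

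**Figure D3:**
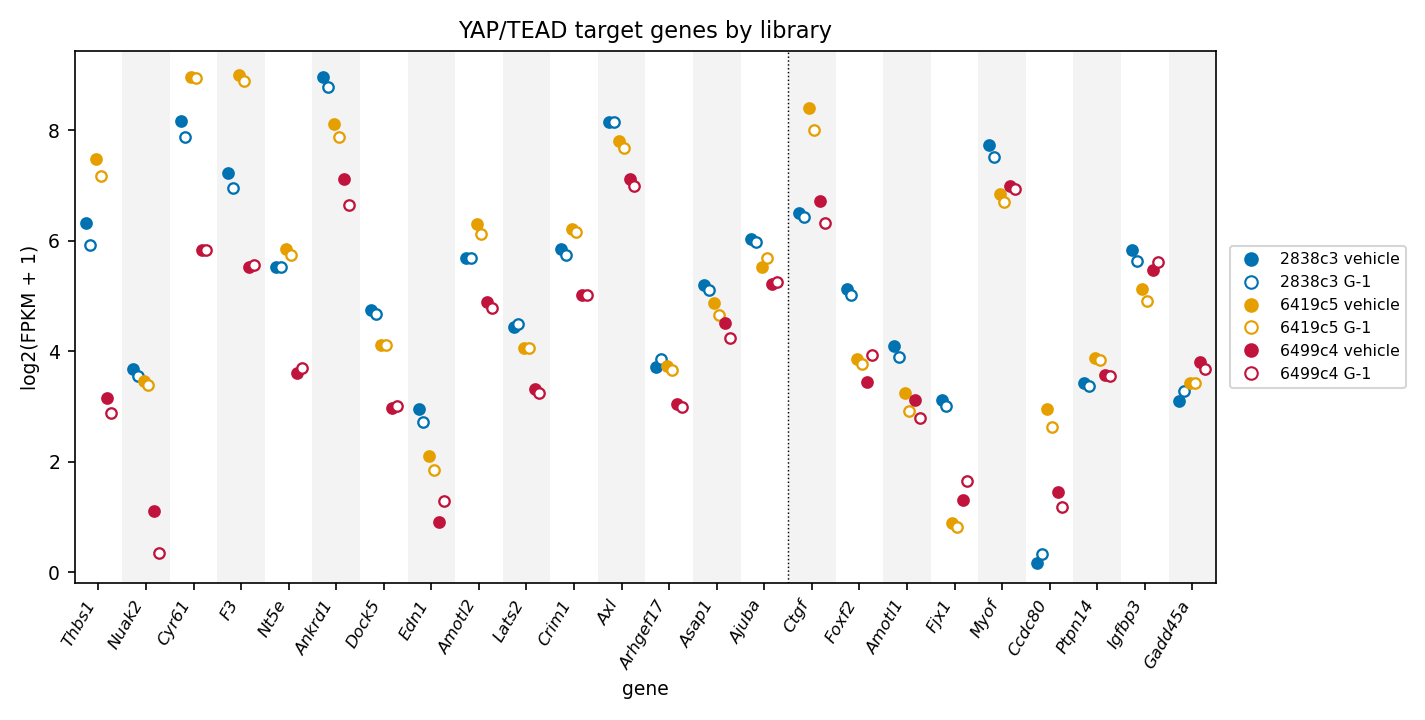
Level of tested YAP/TEAD target genes in each library, as log2(FPKM + 1), with lines by colour, filled points for vehicle and open points for G-1. To the left of the dotted line are genes lower in 6499c4, whose red points lie below the points of both other lines, and to the right are the 9 genes that were not called.

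The promoters of 3 classical targets that were lower together are shown with the core of the TEAD motif in capitals, GGAATG or its reverse complement CATTCC. Windows span the same bases, from RefSeq on GRCm38.p6. Of the 27 listed genes, 18 were matched to that table by symbol or synonym (Cyr61 as Ccn1), with 20 promoters, of which 9 hold the motif on either strand, against 14.7% of 32851 promoters. Of 10 matched genes that were lower in 6499c4, 8 hold it. A match is a description of the letters and not a site.
Cyr61, chr3:145649936-145650235 (minus strand): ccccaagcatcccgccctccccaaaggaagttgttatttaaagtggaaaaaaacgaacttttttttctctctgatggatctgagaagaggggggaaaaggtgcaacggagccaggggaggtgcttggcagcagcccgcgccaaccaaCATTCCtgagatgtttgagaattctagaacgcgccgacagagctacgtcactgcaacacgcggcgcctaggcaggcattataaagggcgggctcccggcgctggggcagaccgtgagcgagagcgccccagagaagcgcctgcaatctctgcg
Ankrd1, chr19:36119795-36120094 (minus strand): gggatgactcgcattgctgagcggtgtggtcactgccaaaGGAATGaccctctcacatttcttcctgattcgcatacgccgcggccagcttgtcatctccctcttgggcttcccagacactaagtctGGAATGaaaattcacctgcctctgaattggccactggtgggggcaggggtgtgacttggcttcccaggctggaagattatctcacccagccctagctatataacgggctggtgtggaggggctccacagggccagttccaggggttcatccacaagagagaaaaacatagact
Amotl2, chr9:102717554-102717853 (plus strand): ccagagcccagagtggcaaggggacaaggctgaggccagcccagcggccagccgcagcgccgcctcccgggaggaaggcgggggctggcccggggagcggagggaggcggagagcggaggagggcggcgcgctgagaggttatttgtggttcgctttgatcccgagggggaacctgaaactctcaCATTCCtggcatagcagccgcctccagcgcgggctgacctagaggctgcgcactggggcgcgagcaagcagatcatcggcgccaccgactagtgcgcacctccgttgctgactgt
The matches begin 103 bases before the start in Cyr61, 210 and 123 before it in Ankrd1 and 65 before it in Amotl2.

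The genes of the pathway itself were lower or not called. Of 31 listed Hippo pathway genes 26 were tested, with 9 lower (34.6%, against 13.9% of all tested genes) and none higher (against 12.0%), and medians of -0.36 and -0.16. Wwtr1, which encodes TAZ, had 19.1 and 15.4 FPKM in 6499c4 against 35.9 and 31.6 in 2838c3 and 41.8 and 40.2 in 6419c5, with differences of -0.93 and -1.21 (SE 0.09, adjusted p = 1.34e-04). Yap1 had 45.7 and 42.5 FPKM in 6499c4 against 59.1 and 56.8 in 2838c3 and 61.1 and 58.8 in 6419c5 and smaller differences, -0.39 and -0.44 (SE 0.07, adjusted p = 0.00279). Of the DNA-binding partners, Tead1 was lower, with differences of -0.65 and -0.94 (SE 0.10, adjusted p = 0.00104) and Tead4 with -0.94 and -0.59 (SE 0.10, adjusted p = 0.00299).

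Tead2 was between the other lines, at 13.6 and 18 FPKM in 6499c4 against 38.6 and 36.5 in 2838c3 and 1.56 and 1.02 in 6419c5. The upstream regulators Rassf1, Fat1, Wwc2 and Map4k4 and the kinase gene Stk4 were lower, with smaller differences of -1.05, -0.96, -0.53, -0.46 and -0.41. The call for Stk4 was lost without the G-1 library of 6419c5 or of 6499c4. The core genes Lats1 (-0.04 and -0.37), Stk3 (0.04 and -0.06) and Nf2 (0.20 and 0.32) were not called, and Sav1 (0.22 and 0.69) was above both lines without passing against 2838c3.

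Cytokine-related genes were more often lower than higher in 6499c4. Over 69 tested genes of 3 lists, 19 were lower (27.5%, against 13.9% of all tested genes) and 6 higher (8.70%, against 12.0%), with medians of -0.48 and -0.37. Of 109 listed genes, 40 were below the level filter, including Il6, Il1a, Tslp and Ccl5, and 10 had no read in any library, including Il1b.

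Of 14 tested chemokines, 4 were lower (28.6%, against 13.9% of all tested genes) and none higher (against 12.0%). Ccl2, a monocyte attractant, had 0.542 and 1.39 FPKM in 6499c4 against 8.26 and 9.16 in 2838c3 and 11.6 and 9.12 in 6419c5, with differences of -2.34 and -2.56 (SE 0.22, adjusted p = 1.20e-04). The related Ccl7 had 0 and 0 FPKM in 6499c4 against 1.17 and 1.91 in 2838c3 and 3.33 and 2.53 in 6419c5, with no read in 6499c4. That makes it at least 3.50-fold lower than in 2838c3 and 6.67-fold lower than in 6419c5 against a floor of 3 reads per library. Cxcl5, a neutrophil attractant, had 21.4 and 20.0 FPKM in 6499c4 against 57.9 and 52.3 in 2838c3 and 42.2 and 45.9 in 6419c5, with differences of -1.37 and -1.05 (SE 0.09, adjusted p = 1.28e-04). Cxcl3, which binds the same receptor, had 1.29 and 1.23 FPKM in 6499c4 against 21.1 and 21.8 in 2838c3 and 6.60 and 4.51 in 6419c5, with differences of -3.31 and -1.52 (SE 0.16, adjusted p = 2.74e-04).

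Several other chemokine genes did not pass against both lines. Cxcl1, also a neutrophil attractant, had 0 and 0 FPKM in 6499c4 against 0.123 and 0 in 2838c3 and 9.0 and 9.48 in 6419c5, at or near 0 outside 6419c5. Cxcl16 had 30.6 and 32.9 FPKM in 6499c4 against 27.7 and 34.2 in 2838c3 and 75.9 and 74.0 in 6419c5, and Ccl20 had 12.1 and 19.8 FPKM in 6499c4 against 31.3 and 31.4 in 2838c3 and 14.7 and 16.7 in 6419c5. None of the 3 was called, and the same holds for Cxcl2 (-1.29 and 0.21) and Cxcl10 (-0.70 and -0.71, adjusted p = 0.0676).

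Of 21 tested cytokines, 4 were lower (19.0%) and 2 higher (9.52%). These shares are near the 13.9% and 12.0% of all tested genes, so the counts show nothing particular about cytokines. Their median differences had opposite signs, 0.43 from 2838c3 and -0.31 from 6419c5. Against 2838c3 alone, 11 passed as higher and 8 as lower, and against 6419c5 alone 2 and 9. Csf1, the macrophage colony-stimulating factor, had 3.95 and 2.59 FPKM in 6499c4 against 25.3 and 19.5 in 2838c3 and 16.2 and 11.7 in 6419c5, with differences of -2.46 from 2838c3 and -1.81 from 6419c5 (SE 0.10, adjusted p = 2.07e-05). Lif, a cytokine of the interleukin 6 family, had 2.09 and 1.81 FPKM in 6499c4 against 7.38 and 7.70 in 2838c3 and 7.29 and 7.79 in 6419c5, with differences of -1.53 and -1.53 (SE 0.13, adjusted p = 1.34e-04). Both were lower by more than 1 on the log2 scale from each line. Tgfb1, transforming growth factor beta 1, was lower, with differences of -1.31 and -0.70 (SE 0.12, adjusted p = 0.00281), and Tnfsf9, the ligand of the costimulatory receptor 4-1BB, with -1.0 and -0.68 (SE 0.12, adjusted p = 0.00301).

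Il18, an epithelial cytokine of the interleukin 1 family, was higher, at 9.46 and 10.4 FPKM in 6499c4 against 0 and 0.135 in 2838c3 and 2.59 and 2.33 in 6419c5, with differences of 3.36 and 1.66 (SE 0.16, adjusted p = 2.20e-04). Flt3l, the growth factor of dendritic cells, had 3.86 and 4.52 FPKM in 6499c4 against 1.09 and 1.64 in 2838c3 and 1.17 and 1.03 in 6419c5, with differences of 1.14 and 1.30 (SE 0.18, adjusted p = 0.00133). Csf2 (-1.10 and -0.20), Csf3 (0.77 and -1.39) and Il33 (0.45 and -1.05) were not called, and for the last pair 6499c4 lay between the other lines.

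Of 34 tested receptors and NF-kB genes, 11 were lower (32.4%, against 13.9% of all tested genes) and 4 higher (11.8%, close to the 12.0% of all tested genes). Il1r1, the signalling receptor of interleukin 1, had 0 and 0 FPKM in 6499c4 against 14.7 and 14.1 in 2838c3 and 4.67 and 5.25 in 6419c5. With 634 and 607 reads in 2838c3, 168 and 144 in 6419c5 and none in 6499c4, it was at least 207-fold and at least 71.2-fold lower. Lcn2, the siderophore-binding lipocalin, also had no read in 6499c4, against 11 and 6 reads in 2838c3 and 58 and 26 in 6419c5. Ptgs2, the inducible cyclooxygenase, had 10.8 and 10.6 FPKM in 6499c4 against 145 and 136 in 2838c3 and 326 and 381 in 6419c5, with differences of -3.59 from 2838c3 and -4.91 from 6419c5 (SE 0.09, adjusted p = 3.96e-07).

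Nfkb1, the gene of the p105 subunit, was lower, with differences of -0.81 and -0.62 (SE 0.08, adjusted p = 6.95e-04). Its inhibitor Nfkbia (-0.62 and 0.40) and the subunit gene Rela (-0.79 and -0.01) were not called. The feedback genes Tnfaip3, Nfkbiz and Socs3 and the target Tnfaip2 were lower, with smaller differences of -0.55, -0.64, -0.68 and -1.0. The receptor genes Tnfrsf1b, Ifnar2 and Il22ra1 were lower, with differences of -0.75, -0.55 and -0.48 from 2838c3 and of -1.49, -1.44 and -0.58 from 6419c5. The call for Ifnar2 was lost without the vehicle library of 2838c3 or of 6499c4.

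The higher receptors were Il17re, Il13ra1, Ifngr1 and Il6ra. Il17re, the epithelial receptor chain for interleukin 17C, had 3.98 and 4.75 FPKM in 6499c4 against 0 and 0 in 2838c3 and 0.0468 and 0 in 6419c5, with differences of 2.42 and 2.39 (SE 0.20, adjusted p = 1.04e-04). Ifngr1, the ligand-binding chain of the interferon gamma receptor, had 86.1 and 80.0 FPKM in 6499c4 against 48.4 and 48.0 in 2838c3 and 55.0 and 55.4 in 6419c5, with differences of 0.77 and 0.58 (SE 0.07, adjusted p = 6.74e-04). The call for Il6ra was lost without the G-1 library of 6419c5 or of 6499c4.

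**Figure D4:**
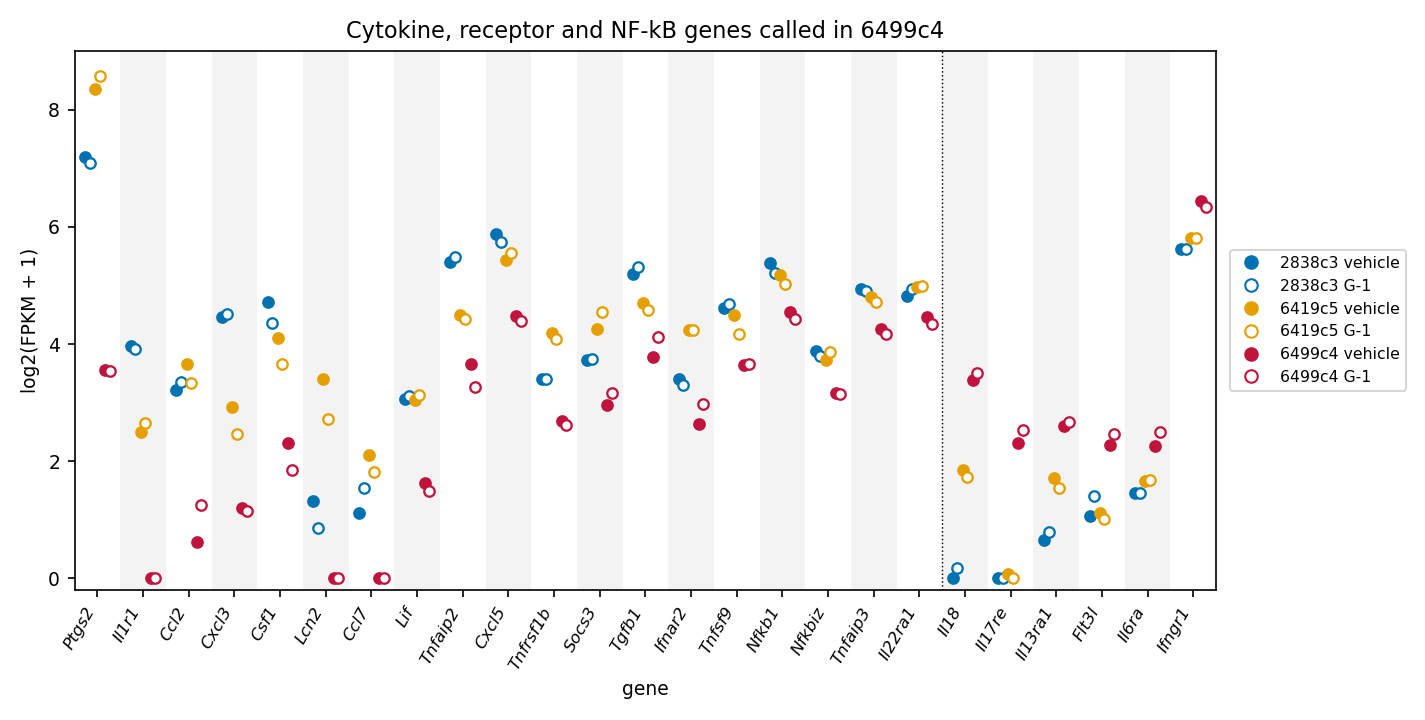
Level of the 25 called cytokine, receptor and NF-kB genes in each library, as log2(FPKM + 1), with lines by colour, filled points for vehicle and open points for G-1. The 19 genes left of the dotted line were lower in 6499c4, with Il1r1, Lcn2 and Ccl7 at 0 in both of its libraries, and the 6 to the right were higher.

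Among all tested genes, the rule for naming also took genes outside these lists. Stmn2, a microtubule regulator known from neurons, had 22.6 and 31.4 FPKM in 6499c4 against 0 and 0 in 2838c3 and 0.0735 and 0.193 in 6419c5. Ifitm3, an interferon-inducible protein that blocks virus entry, had 61.7 and 84.5 FPKM in 6499c4 against 0 and 0 in 2838c3 and 2.16 and 1.98 in 6419c5, with differences of 6.19 and 4.58 (SE 0.16, adjusted p = 2.39e-06). Capn6, a calpain without protease activity, had 19.7 and 21.3 FPKM in 6499c4 against 0.132 and 0 in 2838c3 and 0 and 0 in 6419c5.

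A pair of genes for subunits of the vacuolar proton pump, Atp6v0e2 (3.64 and 3.68) and Atp6v1c2 (3.87 and 3.47), were also among the 15 highest-ranked. So were the chromatin protein gene Hmgn3, the aspartoacylase gene Aspa, the amino acid transporter gene Slc6a15 and the phosphatase inhibitor gene Ppp1r1b, with smaller differences of 3.46, 3.43, 3.38 and 3.33.

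The lowest-ranked genes were the neighbours Tmem176a and Tmem176b, which encode related membrane proteins. The counting of reads shared by close paralogs is not stated in the sources used, which also bears on Ifitm3. Tmem176a had 0.293 and 0.223 FPKM in 6499c4 against 82.9 and 85.8 in 2838c3 and 61.2 and 53.2 in 6419c5, and Tmem176b had 0.480 and 0.548 FPKM in 6499c4 against 142 and 151 in 2838c3 and 60.4 and 55.6 in 6419c5. Xist, the RNA that silences an X chromosome in female cells, had 0.00610 and 0.00696 FPKM in 6499c4 against 30.1 and 26.5 in 2838c3 and 24.6 and 26.9 in 6419c5, with differences of -4.86 and -4.73 (SE 0.12, adjusted p = 4.70e-07). It was thus near 0 in 6499c4 only, and the Y-linked genes Uty, Kdm5d and Eif2s3y had no read in any library, while Ddx3y had 2 reads in the vehicle library of 6419c5 and 1 in the G-1 library of 6499c4. Fxyd5, which encodes dysadherin, a modulator of the sodium pump that lowers cell adhesion, had 1.39 and 0.973 FPKM in 6499c4 against 62.8 and 50.5 in 2838c3 and 73.7 and 72.2 in 6419c5.

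Trf, the iron carrier transferrin, had 0.328 and 0.535 FPKM in 6499c4 against 32.2 and 34.6 in 2838c3 and 107 and 104 in 6419c5, with differences of -4.59 and -6.22 (SE 0.10, adjusted p = 1.95e-07). Ulbp1, a ligand of the killer cell receptor NKG2D, had 295 and 279 reads in 2838c3, 199 and 136 in 6419c5 and none in 6499c4. Dab2, an endocytic adaptor, had 512 and 388 reads in 2838c3, 1869 and 1413 in 6419c5 and none in 6499c4. The reticulum protein gene Ckap4, the apolipoprotein gene Apob, the esterase gene Ces2g, the prostaglandin transporter gene Slco2a1 and the syndecan gene Sdc2 completed this set, with smaller differences of -3.61, -3.57, -3.44, -3.34 and -3.24.

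Some genes were at 0 on one side of the comparison. In 6499c4, 15 genes had no read in either library and over 1 FPKM in all 4 others. They include Il1r1, Ulbp1, Dab2, Ccl7 and Ces2g described above, the growth factor gene Bmp2 and the transcription factor gene Tfap2a, and also the small RNA genes Mir186 and Mir25, which had at most 4 reads in any library. The reverse, over 1 FPKM in both 6499c4 libraries and no read in the other 4, held for 12 genes, among them Pctp, Gspt2 and Blnk, and also the small RNA genes Snord70 and Snord88c, which had at most 10 recovered reads. In 2838c3 the same counts were 37 and 7, and in 6419c5 they were 4 and 18.

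The share of called genes differed between chromosomes, by position in GENCODE M21 for 10672 of the tested genes (99.3%). On chromosome X, 121 of 318 tested genes were higher in 6499c4 (38.1%, against 12.0% of all tested genes) and 12 lower (3.77%), with median differences of 0.46 and 0.34. Shares of higher genes were 26.8% on chromosome 17, 21.6% on 12 and 20.6% on 11. Shares of lower genes were 28.4% on chromosome 16, 27.3% on 2, 26.5% on 3, 23.0% on 18 and 21.9% on 8. The low Xist level and the X-linked differences occurred in the same 2 libraries.

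There were 12 runs of at least 5 tested neighbours called in the same direction. The longest held 7 lower genes on chromosome 16, from Phldb2 to Cd47, and 7 lower genes on chromosome 4, from Miip to Clcn6. Vim lies in a run of 5 lower genes on chromosome 2, from Rsu1 to Stam. DNA copy number is not analysed here, and its part in these shares was not tested. With the median of each chromosome removed, 1103 genes were higher and 1300 lower, of which 868 and 1042 were among those called without it.

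**Figure D5:**
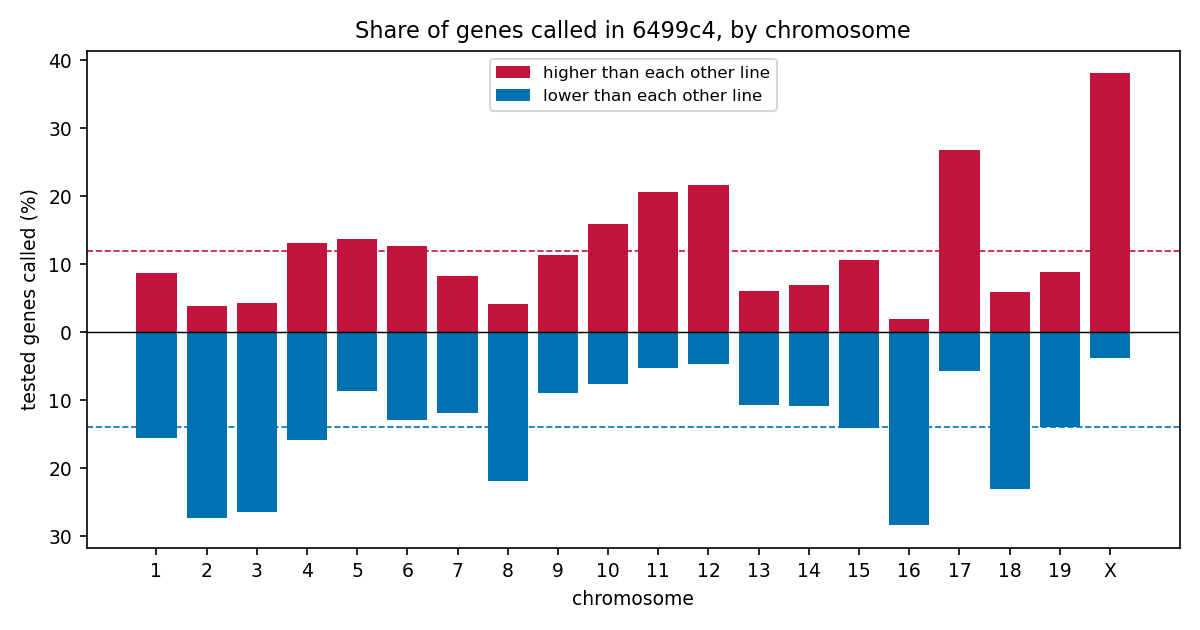
Percent of tested genes on each chromosome that were higher (red, upward bars) or lower (blue, downward bars) in 6499c4 than in each other line. Dashed lines mark 12.0% higher and 13.9% lower, the shares over all tested genes, and chromosome X reaches 38.1% higher.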

How the data were processed

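Messenger RNA was measured in 3 mouse tumour cell lines, 6 libraries in all. The authors deposited 1 table of FPKM values for 24421 gene names, with the unit taken from the table's name and tested on its values. STAR and DESeq2 appear in the submitters' processing notes without a version or role. Build, annotation and strandedness are not given in the sources used, so reads of overlapping genes cannot be told apart. Values move in equal steps within a gene and library, and whole reads were recovered for 15712 of 15712 genes above 0 (100.0%, within 0.01 reads). Recovered reads are the smallest whole numbers that fit, so the true reads of a gene can be a multiple of them. The library scale was proportional to size factors, and differed from read totals by up to 5.76%. 27 names had become dates and 2 were duplicated.

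The 10748 genes whose mean reached 1 FPKM were fitted as log2(FPKM + 1) in limma 3.58.1 (R 4.3.3) with line and treatment as terms and a variance trend (2 residual and 5.35 prior degrees of freedom). Tests were two-sided, with Benjamini-Hochberg adjustment per contrast over all tested genes and a threshold of 0.05. Read ratios use recovered reads on the authors' scale, with exact 95% binomial intervals. The fit and the read recovery were tested on simulated data. The members and gene lists were chosen with earlier results of these data known. Genes named were a fixed set always taken, up to 15 called genes per direction ranked by the smaller difference (clone names and small RNAs passed over) and up to 8 called members per list. Other genes named, which are further list members and genes with no read in a line, were chosen after their values were seen. A few list members are counted but not reported by name here. Alternatives are in the closing section.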

Additional observations from a re-analysis of the deposited data

Results flagged for a closer look

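For 2 of the genes named, 6499c4 was above both other lines in one treatment and below both in the other. Tff2, a gastric trefoil factor, stood at 0.191 FPKM in 6499c4 under vehicle, below 1.02 in 2838c3 and 0.245 in 6419c5. Under G-1 it stood at 1.53 FPKM, above 1.23 and 0.322. These levels rest on 1 and 7 reads in 6499c4, 5 and 6 in 2838c3 and 1 and 1 in 6419c5. Tead3, a DNA-binding partner of YAP, stood at 3.93 FPKM in 6499c4 under vehicle, below 2838c3 only by less than the rounding (3.93) and below 6419c5 at 5.03, and at 6.65 under G-1, against 4.72 and 5.51. With 1 library per line and treatment, the difference between treatments was not tested in either gene.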

How the results depend on the processing

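Each result was recomputed under 17 alternatives at most, and no called result changed direction. Of the called genes of the lists, markers and text, 76 were called in every alternative, and 65 were not called when both differences had to reach at least 1. Testing 6499c4 against the mean of both other lines, a weaker demand, gave 2433 higher and 2651 lower genes, 20 gastric and gut genes higher, 30 cytokine genes lower and 1 YAP target higher. Requiring both differences to reach at least 1 gave 224 higher and 273 lower genes, 9 epithelial genes higher and 2 lower, 7 gastric and gut genes higher and 4 lower, 9 cytokine genes lower and 8 YAP targets lower. A filter at a mean of 5 FPKM left 11 epithelial and 1 cytokine gene higher. YAP targets higher in 6499c4 numbered 1 with no level filter and 1 with quantile scaling.

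Leaving out 1 library, the lone library of its line being assumed to vary like the others, gave 667 to 1081 higher and 955 to 1228 lower genes, 10 to 17 epithelial genes higher and 12 to 13 lower, 8 to 13 gastric and gut genes higher and 5 to 7 lower, 5 to 6 cytokine genes higher and 19 to 20 lower, and 14 to 16 YAP targets lower. Libraries were matched across lines by treatment through the treatment term, and the labels give no replicate numbers for a further block. Limma-voom on the recovered reads called 1451 higher and 1768 lower genes. Dropping the treatment term gave 1103 higher and 1373 lower genes, and ended 9 of the calls on named genes. Removing each chromosome's median ended 11, among them Hnf4a, Stk4, Pard6b, Itga6 and Nfkbiz. A pseudocount of 5 ended the calls for Gkn1 and Lcn2. Limits are the single library per line and treatment, the 1 clone per line, and counts near the floor of 3 reads for several genes at 0 in one line.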

Other observations

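The genes in these paragraphs were chosen after their values were seen. Among prostaglandin genes, calls went in both directions. Ptgs1, the constitutive cyclooxygenase, had 2.48 and 2.22 FPKM in 6499c4 against 31.5 and 29.4 in 2838c3 and 22.6 and 22.9 in 6419c5 (vehicle, then G-1) and differences of -3.23 from 2838c3 and -2.83 from 6419c5 (SE 0.10, adjusted p = 2.32e-06), lower in 6499c4 as Ptgs2 was. The prostaglandin transporter gene Slco2a1 had 1.22 and 1.89 FPKM in 6499c4 against 46.7 and 46.1 in 2838c3 and 25.3 and 24.1 in 6419c5. Ptger4, a receptor of prostaglandin E2, had 4.99 and 8.92 FPKM in 6499c4 against 0.211 and 0.458 in 2838c3 and 2.19 and 2.43 in 6419c5 and was higher, with differences of 2.54 and 1.22 (SE 0.19, adjusted p = 0.00210). The terminal synthase genes Ptges, Ptges2 and Ptges3 were not called, and Ptges was between the other lines at 3.38 and 2.98 FPKM.

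Tmem173, which encodes the DNA-sensing adaptor STING, had 22.6 and 23.6 FPKM in 6499c4 against 0.254 and 0.102 in 2838c3 and 2.61 and 2.31 in 6419c5, with differences of 4.36 and 2.80 (SE 0.14, adjusted p = 1.39e-05). The sensor gene Mb21d1 (cGAS) stayed below the level filter, at 0.159 and 0.0905 FPKM in 6499c4. Ripk3, the necroptosis kinase, was higher, at 11.1 and 13.7 FPKM in 6499c4 against 0.773 and 1.19 in 2838c3 and 0.926 and 0.0935 in 6419c5. Its substrate Mlkl was lower, at 12.0 and 9.97 FPKM in 6499c4 against 37.9 and 36.3 in 2838c3 and 37.0 and 39.8 in 6419c5. Ifitm2 was higher beside Ifitm3, with differences of 1.60 and 1.26 (SE 0.15, adjusted p = 4.80e-04).

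Among iron genes, Trf was lower as described above. The ferroxidase gene Cp had 0.784 and 0.637 FPKM in 6499c4 against 15.2 and 13.8 in 2838c3 and 8.29 and 8.36 in 6419c5, and the transferrin receptor gene Tfrc had 201 and 165 FPKM in 6499c4 against 288 and 263 in 2838c3 and 272 and 268 in 6419c5. Slc40a1, which encodes the iron exporter ferroportin, was higher, with differences of 2.66 and 0.69 (SE 0.18, adjusted p = 0.0162), a call lost without the vehicle library of 6419c5 or either library of 6499c4. Ihh, a hedgehog ligand of gut epithelium, was higher, at 13.0 and 18.4 FPKM in 6499c4 against 0.335 and 0.144 in 2838c3 and 1.95 and 1.20 in 6419c5, while the pathway targets Ptch1 and Gli1 were not called or stayed below the level filter.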
